A study of Mus musculus with 4 samples.

Results

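Ferritin and the genes that bring iron into the cell, store it, release it and sense it were examined in 4 stable lines of 3T3-L1, a murine preadipocyte line that turns into fat cells under adipogenic hormones. The 8 genes are Fth1, Ftl1, Ncoa4, Aco1, Ireb2, Tfrc, Slc11a2 and Slc40a1, out of 13085 genes with a symbol in the deposited table, and each of the 8 had 1 row. They were chosen by their known role with earlier FPKM results of the same 4 samples in view, so their levels and differences are given as a description and no test is made of them. FPKM counts fragments per kilobase of transcript, corrected for how many fragments each library gave, so levels of different genes can be set side by side.

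FLAG cells carry the empty FLAG vector and FLAG-CACUL1 cells express FLAG-tagged CACUL1, a CDK2-associated cullin. The sh-Luc cells carry a hairpin against luciferase and the sh-CACUL1 cells a hairpin against CACUL1. All 4 lines received the same differentiation mixture, with rosiglitazone at 5 μM, IBMX at 0.5 mM, dexamethasone at 1 μg/ml and insulin at 5 μg/ml, and RNA was taken on day 8. Each group is 1 sample of 1 stable line, the FLAG pair and the hairpin pair carry different vectors and selection drugs, and vector, drug, line and library cannot be told apart.

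Ferritin is a hollow protein shell of heavy and light subunits in which cells store iron in a safe form. Iron enters as transferrin through the transferrin receptor, crosses the endosomal membrane through a divalent metal transporter and leaves the cell through ferroportin. When iron is scarce, the iron regulatory proteins bind a hairpin in the mRNA called the iron-responsive element (IRE): in a 5′ UTR it holds back translation, as in ferritin, and in a 3′ UTR it protects the mRNA from decay, as in the transferrin receptor. Fat cells express these genes as other cells do, and their mitochondria need iron for heme and iron-sulfur clusters.

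The hairpins are shown because the iron regulatory proteins act on these mRNAs through them. They were found in the transcripts of GENCODE M21 on GRCm38 by a letter search on the sense strand for C, 5 stem letters, the loop CAGTGN and 5 letters that pair with the stem, with G-T pairs allowed. The 6 loop letters are in capitals, and each sequence of 30 bases is written 5′ to 3′ on the strand of the gene. The following 7 sequences met the search.

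Fth1, 5′ UTR: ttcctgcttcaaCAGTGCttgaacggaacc
Ftl1, 5′ UTR: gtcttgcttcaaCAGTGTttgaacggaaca
Slc40a1, 5′ UTR: caacttcagctaCAGTGTtagctaagtttg
Tfrc, 3′ UTR, hairpin 1: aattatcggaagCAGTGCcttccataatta
Tfrc, 3′ UTR, hairpin 2: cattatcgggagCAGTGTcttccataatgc
Tfrc, 3′ UTR, hairpin 3: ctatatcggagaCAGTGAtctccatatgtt
Tfrc, 3′ UTR, hairpin 4: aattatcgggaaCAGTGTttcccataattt

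The Fth1 hairpin lies in exon 1 at chr19:9982732-9982761 on the plus strand, the Ftl1 hairpin in exon 1 at chr7:45459778-45459807 on the minus strand, and the Slc40a1 hairpin in exon 1 at chr1:45925464-45925493 on the minus strand. The 4 Tfrc hairpins lie in exon 19 on the plus strand, at chr16:32631219-32631248, chr16:32631598-32631627, chr16:32631663-32631692 and chr16:32631710-32631739. The search thus matched 4 of the 8 genes (50.0%), against 160 of 21877 genes with a coding transcript (0.731%), 31 of them in a 5′ UTR (0.142%) and 129 in a 3′ UTR (0.590%). Because these hairpins are part of why the genes are studied together, that share is a description of the group.

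Looser forms of the hairpin were present in 2 places. A Tfrc hairpin with another loop lies at chr16:32631160-32631189, and Slc11a2 holds a hairpin with 4 of 5 pairs in exon 16 at chr15:100395152-100395181 on the minus strand. Both are shown for comparison with the sequences above.

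Tfrc, 3′ UTR, other loop: atttatcagtgaCAGAGTtcactataaata
Slc11a2, 3′ UTR: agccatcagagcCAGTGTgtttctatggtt

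The Slc11a2 hairpin is in the longer of 2 annotated transcripts that the deposited row joins, so the level of the form with the hairpin cannot be read from it. No match was found in the UTRs of Aco1, Ireb2 and Ncoa4. A match is a description of letters, and FPKM measures the amount of RNA and neither translation nor binding of a regulatory protein.

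The libraries held an estimated 14200000 to 23900000 fragments, with sh-Luc the deepest, and their summed FPKM ranged from 372148 in sh-CACUL1 to 473584 in FLAG-CACUL1. Cacul1 itself was at 9.61 FPKM in FLAG against 11.8 in FLAG-CACUL1, and 10.2 in sh-Luc against 5.39 in sh-CACUL1, so its RNA was lower under the hairpin, with a log2 difference of -0.82, and close to its control in the overexpressing line, with 0.27. The median log2 ratio of all genes was 0.09 for FLAG-CACUL1 against FLAG, -0.30 for sh-CACUL1 against sh-Luc and -0.18 for FLAG against sh-Luc. Fat-cell markers differed widely: summed over the 9 of 10 listed markers with a row, they stood at 8435 FPKM in FLAG against 916 in FLAG-CACUL1, and 1666 in sh-Luc against 16627 in sh-CACUL1. Of 6 macrophage markers 2 had a row, with sums of 1.08 to 16.8 FPKM, mostly Cd68 in FLAG (16.2 FPKM), and of 5 endothelial and epithelial markers 1 had a row, at 0.301 FPKM or less.

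Fth1 encodes the heavy subunit of ferritin, which oxidises iron as it enters the shell. It was at 4664.6 FPKM in FLAG against 12208.2 in FLAG-CACUL1, and 7807.7 in sh-Luc against 3751.1 in sh-CACUL1. It was the most abundant RNA of all 13085 genes in FLAG-CACUL1 and in sh-Luc, and stood at rank 2 in sh-CACUL1 and rank 4 in FLAG. Its level was 2.62 times that of FLAG in the overexpressing line and 2.08-fold lower than that of sh-Luc in the depleted line. On the log2(FPKM + 1) scale used for all differences here, these are 1.39 and -1.06.

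The 2 control lines themselves were not at the same Fth1 level. FLAG lay 1.67-fold below sh-Luc, a log2 difference of -0.74, and the FLAG level was closer to that of sh-CACUL1 than to that of sh-Luc. Measured against the other control, as deposited, the differences became 0.64 for FLAG-CACUL1 and -0.31 for sh-CACUL1, with the same directions and below 2-fold. After quantile normalization the controls differed by -1.44, and FLAG-CACUL1 and sh-Luc, where Fth1 ranked first, both stood at 10200 FPKM. On that scale sh-CACUL1, at 4830, lay above FLAG, at 3760, so the directions against the other control did not hold.

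Ftl1 encodes the light subunit, which helps to form the iron core. It was at 3396.6 FPKM in FLAG against 6525.3 in FLAG-CACUL1, and 2830.4 in sh-Luc against 1631.8 in sh-CACUL1. The overexpressing line was again the highest and the depleted line the lowest, with both controls between them as deposited. The log2 differences were 0.94 for FLAG-CACUL1 against FLAG and -0.79 for sh-CACUL1 against sh-Luc, both short of 2-fold, and 0.26 between the controls. After quantile normalization the 3 values became 0.51, -1.36 and -0.80. Against the other control, as deposited, the differences of the CACUL1 lines were 1.20 and -1.06.

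The pair made up 1.71% of the summed FPKM in FLAG against 3.96% in FLAG-CACUL1, and 2.56% in sh-Luc against 1.45% in sh-CACUL1. Within a sample, Fth1 exceeded Ftl1 by 1.37 times in FLAG against 1.87 in FLAG-CACUL1, and 2.76 in sh-Luc against 2.30 in sh-CACUL1. On this scale the CACUL1 lines stood between the 2 controls. Quantile normalization gave 1.35, 2.59, 2.12 and 2.57 in the same order, with both CACUL1 lines above both controls. It gives all samples the same value at a given rank. The ratios it gave thus restate the ranks of the 2 genes, 1 to 4 for Fth1 and 2 to 16 for Ftl1, and are not read as subunit proportions. Of the stretches of 31 bases in Ftl1, 85.4% also occur in 30 other annotated genes, of which Ftl1-ps1 shares the most, while 12.9% of those of the shorter Fth1 transcript occur in 3 others. None of these other genes has a row, and how fragments that match several genes were assigned is not given in the sources used here, so the Ftl1 level is less certain than the Fth1 level.

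Ncoa4 encodes the receptor that carries ferritin to the lysosome for iron release. It was at 27.3 FPKM in FLAG against 23.8 in FLAG-CACUL1, and 26.4 in sh-Luc against 23.4 in sh-CACUL1. These are the closest values of the 8 genes, with the highest 1.17 times the lowest. The log2 differences were -0.19 and -0.17 in the overexpressing and depleted lines, and the second turned positive when scaled by quantiles or by median-of-ratios. A nearly level Ncoa4 stood beside very different ferritin levels, and Fth1 per Ncoa4 was 171 in FLAG against 512 in FLAG-CACUL1, and 295 in sh-Luc against 161 in sh-CACUL1. Of the stretches of the shorter Ncoa4 transcript, 53.9% also occur in the annotated gene Gm6768.

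**Figure D1:**
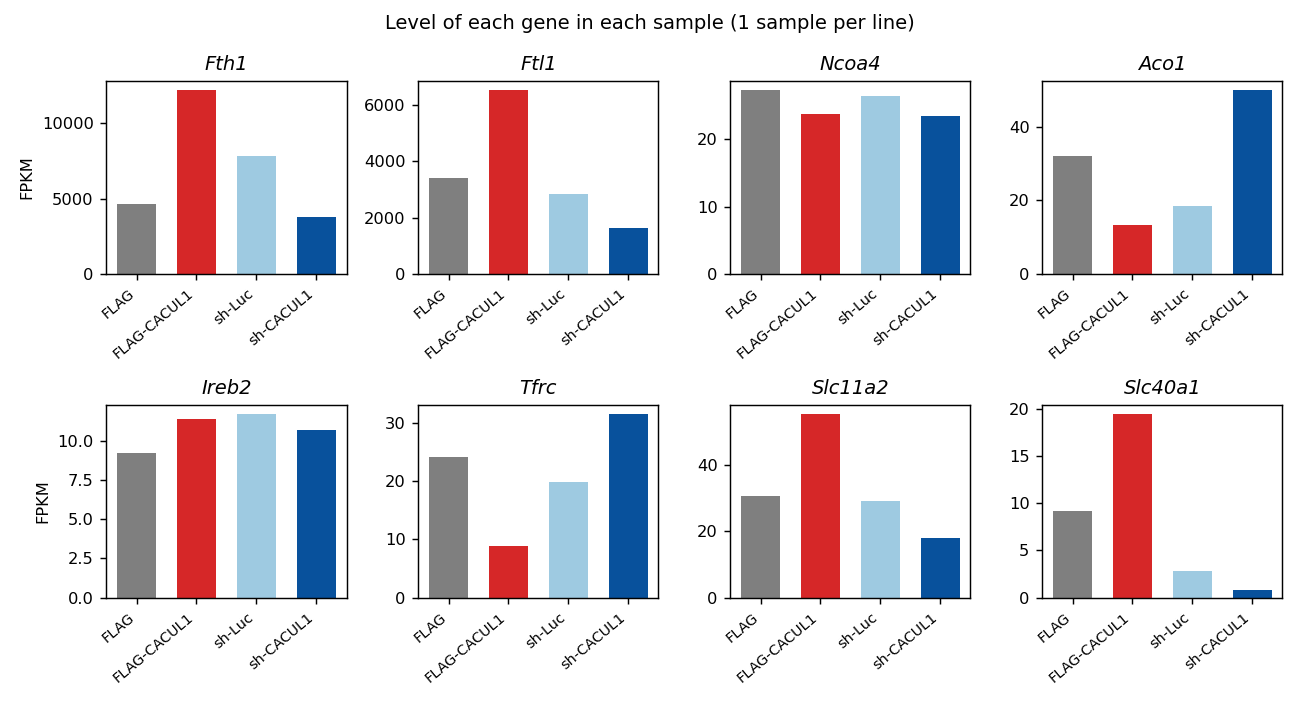
Each panel plots 1 gene, with FPKM on a linear axis that starts at 0 and 1 bar per sample, without error bars because each line is 1 sample. On this deposited scale Fth1, Ftl1, Slc11a2 and Slc40a1 are highest in FLAG-CACUL1 and lowest in sh-CACUL1, which does not hold for Fth1 and Ftl1 after quantile normalization, Aco1 and Tfrc are the reverse, and Ncoa4 and Ireb2 are nearly level.

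Aco1 encodes cytosolic aconitase, which becomes iron regulatory protein 1 when it loses its iron-sulfur cluster. It was at 32.2 FPKM in FLAG against 13.2 in FLAG-CACUL1, and 18.5 in sh-Luc against 50.0 in sh-CACUL1. The depleted line was the highest and the overexpressing line the lowest. The log2 differences were -1.22 and 1.39, and 0.77 between the controls. Against the other control they shrank to -0.45 and 0.62.

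Ireb2 encodes iron regulatory protein 2, which is degraded when iron is ample. It was at 9.20 FPKM in FLAG against 11.4 in FLAG-CACUL1, and 11.7 in sh-Luc against 10.7 in sh-CACUL1, and the highest value was 1.27 times the lowest. The log2 differences of 0.28 and -0.12 were small, that of the overexpressing line turned to -0.04 against sh-Luc, that of the depleted line to 0.20 against FLAG, and the latter also turned positive under both scalings. The 2 regulators therefore did not keep a fixed proportion. Aco1 per Ireb2 was 3.50 in FLAG against 1.16 in FLAG-CACUL1, and 1.58 in sh-Luc against 4.66 in sh-CACUL1. Against the control of the same vector, it was 3.00-fold lower with overexpression and 2.96 times as high with depletion. The controls were further apart as a ratio than FLAG-CACUL1 was from sh-Luc or sh-CACUL1 from FLAG.

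Tfrc encodes the transferrin receptor, the entry point of transferrin iron. It was at 24.1 FPKM in FLAG against 8.92 in FLAG-CACUL1, and 19.8 in sh-Luc against 31.6 in sh-CACUL1. The overexpressing line was 2.70-fold below FLAG and the depleted line 1.59 times sh-Luc, with log2 differences of -1.34 and 0.65. FLAG-CACUL1 was the lowest of the 4 against either control, with -1.07 against sh-Luc, and the depleted line differed from FLAG by 0.38. The difference between the controls was 0.27.

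Slc11a2 encodes the divalent metal transporter DMT1, which moves iron out of the endosome. It was at 30.7 FPKM in FLAG against 55.6 in FLAG-CACUL1, and 29.1 in sh-Luc against 18.1 in sh-CACUL1. Although it also serves iron uptake, its order was that of Ftl1 and not that of Tfrc. The log2 differences were 0.84 and -0.66, both short of 2-fold, and the controls differed by 0.08.

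Slc40a1 encodes ferroportin, the exporter of iron. It was at 9.21 FPKM in FLAG against 19.5 in FLAG-CACUL1, and 2.80 in sh-Luc against 0.813 in sh-CACUL1, the widest range of the 8 genes, with the highest level 24.0 times the lowest. The log2 differences were 1.01 and -1.07, and that between the controls, 1.43, was larger than either. Against the other control the differences were 2.43 and -2.49.

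The low Slc40a1 value in sh-CACUL1 rests on about 41 fragments by the depth estimate, against about 930 in FLAG-CACUL1, and its 95% Poisson interval runs from 0.583 to 1.10 FPKM. Intervals of this kind cover counting error only and leave out the variation between cultures. On FPKM without a pseudocount, the sh-CACUL1 level was 3.44-fold below sh-Luc, since adding 1 to a low value narrows its difference.

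**Figure D2:**
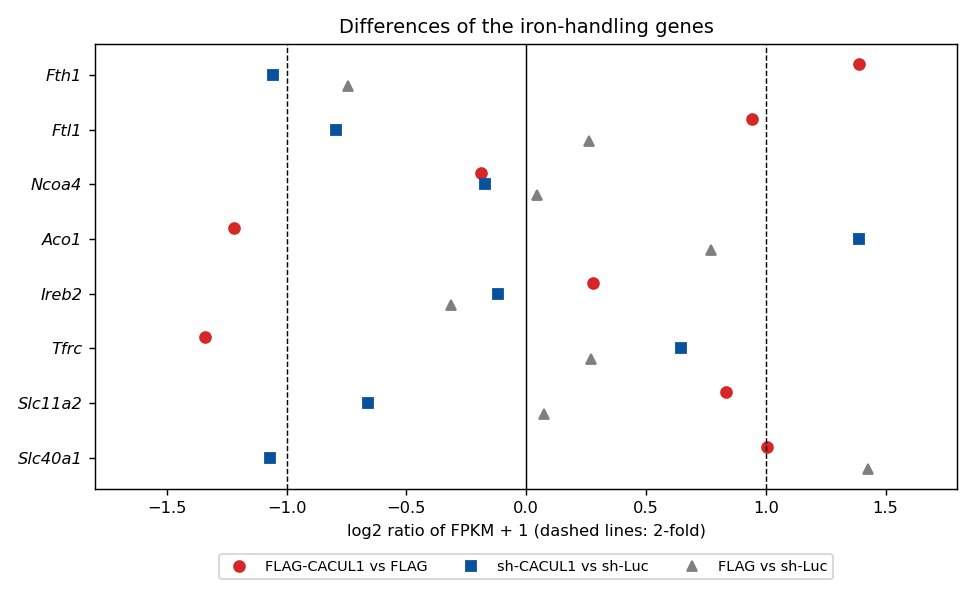
The horizontal axis is the log2 ratio of FPKM + 1 and each row is 1 gene, with circles for FLAG-CACUL1 against FLAG, squares for sh-CACUL1 against sh-Luc and triangles for FLAG against sh-Luc, each from 1 sample a side. Circles and squares lie on opposite sides of 0 for 7 of the 8 genes, with Ncoa4 the exception, and the triangle of Slc40a1 lies beyond 2-fold.

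In FLAG-CACUL1 against FLAG, 4 of the 8 genes differed by at least 2-fold, where 14.7% of all genes did. Fth1 and Slc40a1 were the 2 that were higher, where 7.51% of all genes were, and Aco1 and Tfrc the 2 that were lower, where 7.22% were. In sh-CACUL1 against sh-Luc, 3 of the 8 differed by at least 2-fold, where 21.3% of all genes did. Aco1 was the 1 that was higher, where 4.94% of all genes were, and Fth1 and Slc40a1 the 2 that were lower, where 16.4% were. The members were chosen with these contrasts known, so nothing is read from their counts.

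Scaling changed the split of higher and lower genes. All genes at least 2-fold apart in sh-CACUL1 against sh-Luc were 647 higher and 2141 lower as deposited, 1178 and 1084 after quantile normalization, and 1231 and 975 after median-of-ratios scaling. For FLAG against sh-Luc the 1123 higher and 1627 lower genes became 1345 and 1143, and 1565 and 937, and for FLAG-CACUL1 against FLAG the 983 higher and 945 lower became 831 and 1020, and 755 and 1169. Relative to the median of all genes, the log2 differences in sh-CACUL1 against sh-Luc were -0.75 for Fth1, -0.49 for Ftl1, -0.36 for Slc11a2 and -0.76 for Slc40a1, and 1.69 for Aco1 and 0.95 for Tfrc. Those 6 genes kept their direction under both scalings in this comparison and in that of FLAG-CACUL1 against FLAG. By the same measure the differences in FLAG-CACUL1 against FLAG were 1.30 for Fth1, 0.85 for Ftl1, 0.74 for Slc11a2, 0.91 for Slc40a1, -1.31 for Aco1 and -1.43 for Tfrc.

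Between the 2 controls, 1 of the 8 genes, Slc40a1, differed by at least 2-fold, where 21.0% of all genes did. It was higher in FLAG, as were 8.58% of all genes, while none of the 8 was at least 2-fold lower there, as were 12.4% of all genes. As deposited, the controls thus differed at nearly as many genes as sh-CACUL1 and sh-Luc did, and at more than FLAG-CACUL1 and FLAG did (14.7%). Under quantile normalization the controls differed at 2488 genes, and sh-CACUL1 and sh-Luc at 2262. Under median-of-ratios scaling these were 2502 and 2206.

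The signs in FLAG-CACUL1 against FLAG and in sh-CACUL1 against sh-Luc were opposite for 7 of the 8 genes, where they were for 59.5% of all genes. They were opposite and at least 2-fold in both for Fth1, Aco1 and Slc40a1, 3 of the 8, where they were for 4.71% of all genes. After quantile normalization these were Fth1, Aco1 and Tfrc, beside 4.30% of all genes, and after median-of-ratios scaling Aco1 and Tfrc, 2 of the 8, beside 4.28%. The 2 comparisons share no sample. The median log2 difference of the 8 genes was 0.56 in the first and -0.42 in the second, and it joins genes that went in opposite directions.

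**Figure D3:**
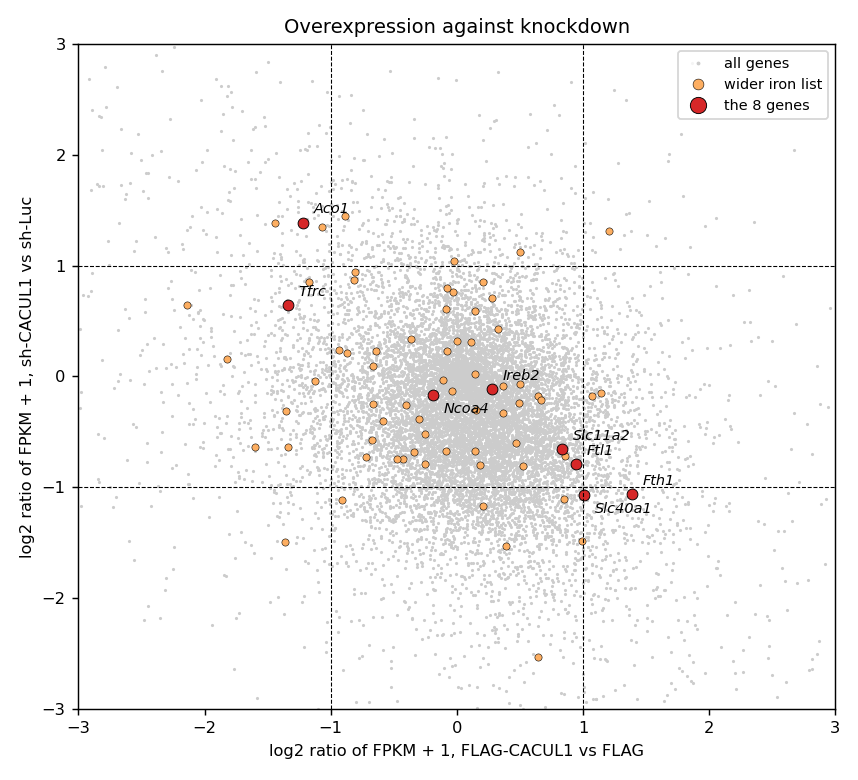
Each point is 1 gene, with the log2 ratio of FPKM + 1 of FLAG-CACUL1 against FLAG on the horizontal axis and of sh-CACUL1 against sh-Luc on the vertical axis, for all genes in grey, the wider iron list in orange and the 8 genes in red, with dashed lines at 2-fold. Fth1, Ftl1, Slc11a2 and Slc40a1 lie at the lower right, Aco1 and Tfrc at the upper left, and Ncoa4 and Ireb2 near the centre, and 174 genes fall outside the axes, which end at -3 and 3.

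Ratios between genes of 1 sample do not change when each sample is multiplied by a factor, as in median-of-ratios scaling, but quantile normalization can change them. Fth1 per Tfrc, storage against uptake, was 193 in FLAG against 1369 in FLAG-CACUL1, and 394 in sh-Luc against 119 in sh-CACUL1. It was thus 7.08 times as high with CACUL1 overexpression and 3.32-fold lower with depletion. As deposited, the controls differed from each other by less than FLAG-CACUL1 did from either, but by more than sh-CACUL1 did from FLAG. Quantile normalization gave 160 in FLAG against 1200 in FLAG-CACUL1, and 579 in sh-Luc against 128 in sh-CACUL1. On that scale the controls were further apart as a ratio than FLAG-CACUL1 and sh-Luc were. Ftl1 per Tfrc as deposited was 141 in FLAG and 143 in sh-Luc, while FLAG-CACUL1 stood at 732 and sh-CACUL1 at 51.6. After quantile normalization the controls were further apart, at 118 and 274, and FLAG-CACUL1 and sh-CACUL1 stood at 463 and 49.9.

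The ratio of Slc40a1 to Tfrc, export against uptake, also differed in both directions, and the 2 controls differed in it, with FLAG above sh-Luc. Slc40a1 per Tfrc was 0.382 in FLAG against 2.19 in FLAG-CACUL1, and 0.141 in sh-Luc against 0.0257 in sh-CACUL1, which is 5.73 times as high with overexpression and 5.49-fold lower with depletion. Ferroportin RNA exceeded transferrin receptor RNA in FLAG-CACUL1 alone, and in sh-CACUL1 there was 38.9 times as much Tfrc as Slc40a1. The 2 uptake genes also parted, with Slc11a2 per Tfrc at 1.27 in FLAG against 6.23 in FLAG-CACUL1, and 1.47 in sh-Luc against 0.571 in sh-CACUL1. With Slc11a2 as the uptake gene, the balance differed little with overexpression. Slc11a2 per Slc40a1 was 3.33 in FLAG against 2.85 in FLAG-CACUL1, and 10.4 in sh-Luc against 22.2 in sh-CACUL1. That is 0.854 times the control with overexpression and 2.14 times with depletion.

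**Figure D4:**
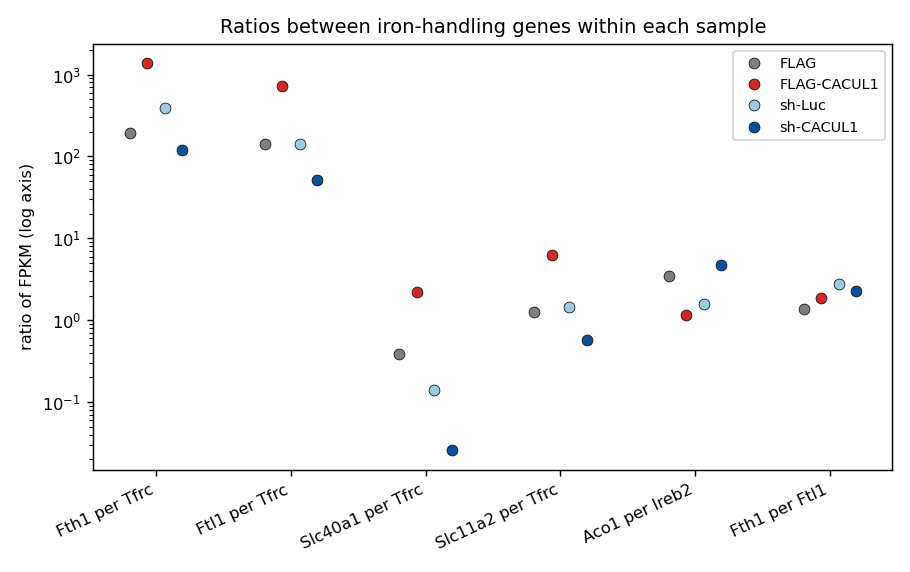
Each column is the FPKM ratio of 1 pair of genes within a sample on a log axis, with 1 point per sample. For the 4 ratios to Tfrc, FLAG-CACUL1 is the highest and sh-CACUL1 the lowest, for Aco1 per Ireb2 the order is reversed, and for Fth1 per Ftl1 the CACUL1 lines lie between the 2 controls, which does not hold after quantile normalization.

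Fat-cell markers also differed in each of these comparisons. Adipoq, which encodes the fat-cell hormone adiponectin, was at 837 FPKM in FLAG against 23.0 in FLAG-CACUL1, and 171 in sh-Luc against 1252 in sh-CACUL1, and Pparg, the master factor of fat-cell formation, at 70.1, 12.3, 14.8 and 61.8 in the same order. Each of the 9 fat-cell markers with a row was called lower with overexpression, higher with depletion and higher in the FLAG control than in the sh-Luc control. Of the preadipocyte markers 7 of 8 had a row, and their sums were 289 FPKM in FLAG against 690 in FLAG-CACUL1, and 184 in sh-Luc against 118 in sh-CACUL1. These markers did not move as one, with 4 higher and 1 lower in FLAG-CACUL1 against FLAG, and 2 higher and 3 lower in sh-CACUL1 against sh-Luc. Dlk1 differed by -1.28 and 4.19 and Thy1 by 1.74 and 4.41. Between the controls, Ftl1 (log2 difference 0.26) and Slc40a1 (1.43) were higher in FLAG, as were the fat-cell markers, and Slc11a2 (0.08) was nearly level. In both CACUL1 comparisons Ftl1, Slc40a1 and Slc11a2 went the other way from those markers. Aco1 (0.77) and Tfrc (0.27) were higher in FLAG and Fth1 (-0.74) lower. Relative to the markers, Aco1, Tfrc and Fth1 thus went as in both CACUL1 comparisons. Quantile normalization turned the sign of Ftl1 between the controls. The part of these marker differences in the iron results was not tested. In a bulk sample, fewer fat cells and less RNA per fat cell cannot be told apart.

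Aco1 and Tfrc put the 4 samples in the order of Adipoq, from FLAG-CACUL1 through sh-Luc and FLAG to sh-CACUL1, and Fth1 put them in the reverse order. That is 3 of the 8 genes, where 10.9% of all genes had the same or the reverse order, and this measure was chosen after the values were seen. Ftl1, Slc11a2 and Slc40a1 had FLAG-CACUL1 highest and sh-CACUL1 lowest like Fth1, but with FLAG above sh-Luc. The orders of Fth1 and Ftl1 held under median-of-ratios scaling and not under quantile normalization, which put FLAG lowest for Fth1 and sh-Luc highest for Ftl1.

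The genes whose pattern over the 4 samples was closest to Fth1 among 9563 genes of at least 1 FPKM in all samples were Ctnnb1, Mapk8ip1 and Commd7, with a root mean square difference in centred log2(FPKM + 1) of 0.0645, 0.0721 and 0.0819. Closest to Ftl1 were Fam3c, Tceal9 and Tifa, with 0.0757, 0.0810 and 0.0884. Closest to Tfrc were 1810032O08Rik, Ermp1 and Dhrs13, with 0.0550, 0.0661 and 0.0838. Slc40a1 was below that level in sh-CACUL1. Among the other 7 genes, the nearest to Ftl1 was Slc11a2 with 0.165, the nearest to Fth1 was also Slc11a2 with 0.296, and the nearest to Tfrc was Aco1 with 0.282. The 2 ferritin subunits were 0.374 apart, and Ftl1 held place 744 in likeness to Fth1.

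A wider list of 73 iron genes, 66 of them with a row and 58 of at least 1 FPKM in all samples, gives the surroundings of the 8. In FLAG-CACUL1 against FLAG, 3 were at least 2-fold higher (4.55% of the list beside 7.51% of all genes) and 10 lower (15.2% beside 7.22%), together 19.7% beside 14.7%. In sh-CACUL1 against sh-Luc, 6 were higher (9.09% beside 4.94%) and 7 lower (10.6% beside 16.4%), together 19.7% beside 21.3%. The median log2 difference of the list was -0.08 and -0.16, beside 0.09 and -0.30 for all genes. The groups of the list that follow hold 6 to 18 genes each, and their counts stand beside the same shares of all genes, 7.51% higher and 7.22% lower in FLAG-CACUL1 and 4.94% higher and 16.4% lower in sh-CACUL1, so that 1 or 2 called genes in a group are not read as a result about it.

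Among the 7 other uptake genes with a row, 1 was higher in FLAG-CACUL1, where 7.51% of all genes were, and 1 was higher and 3 were lower in sh-CACUL1, where 4.94% and 16.4% were. The genes called were Steap1, Steap2, Steap3 and Steap4, of a family of reductases that make iron fit for transport. Steap3, which acts in the endosome beside Tfrc, was at 45.2 FPKM in FLAG against 91.0 in FLAG-CACUL1, and 88.1 in sh-Luc against 30.9 in sh-CACUL1, with log2 differences of 0.99 and -1.48. Steap1 and Steap2 were lower in sh-CACUL1 by log2 differences of -1.17 and -1.53, and differed by 0.21 and 0.39 in FLAG-CACUL1. Steap4 was higher in both, by 1.21 and 1.31, at 7.20 FPKM in FLAG against 17.9 in FLAG-CACUL1, and 1.33 in sh-Luc against 4.78 in sh-CACUL1. The Steap4 difference between the controls, 1.81, was larger than either, and sh-CACUL1 was below FLAG, with -0.505.

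Of 6 genes with a row for export and its control, 2 were lower in FLAG-CACUL1, and 1 was higher and 1 lower in sh-CACUL1. The 2 copper ferroxidases that oxidise iron as it leaves the cell went opposite ways with depletion. Cp, ceruloplasmin, was at 99.0 FPKM in FLAG against 155 in FLAG-CACUL1, and 48.2 in sh-Luc against 7.52 in sh-CACUL1, with log2 differences of 0.64 and -2.53, and its order was that of Slc40a1. Heph, hephaestin, was at 5.82, 2.25, 4.89 and 14.0 FPKM in the same order of samples, with -1.07 and 1.35. Hfe, a regulator of iron uptake, was the other gene lower in FLAG-CACUL1, with -1.60, and with -0.43 against sh-Luc.

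Of 8 heme synthesis genes with a row, 1 was lower in FLAG-CACUL1, where 7.22% of all genes were, and 2 were higher in sh-CACUL1, where 4.94% were. Alas1, the first enzyme of the pathway, was at 33.9 FPKM in FLAG against 17.9 in FLAG-CACUL1, and 14.4 in sh-Luc against 41.1 in sh-CACUL1, with log2 differences of -0.89 and 1.45. Alad, which acts on the product of Alas1, was at 12.0, 3.78, 5.47 and 15.9 FPKM, with -1.44 and 1.38. Both had their highest level where Tfrc was highest.

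Of 7 genes of heme breakdown and binding, 1 was lower in each comparison. Hmox1, heme oxygenase 1, which frees iron from heme, was at 924 FPKM in FLAG against 361 in FLAG-CACUL1, and 232 in sh-Luc against 187 in sh-CACUL1, with log2 differences of -1.35 and -0.31. FLAG stood apart from the other 3 for this gene, as it did for the macrophage marker Cd68, at 16.2 FPKM against 0.962 to 1.44, whose part in the difference was not tested. Hebp1, a heme-binding protein, differed by -0.91 and -1.11.

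Of 18 genes of mitochondrial iron import and iron-sulfur assembly with a row, 1 was higher and 4 were lower in FLAG-CACUL1, and 2 were higher in sh-CACUL1. Fdx1, a ferredoxin that hands on electrons, and Fdxr, the reductase that charges it, were lower in FLAG-CACUL1 with log2 differences of -2.14 and -1.82, and differed by 0.64 and 0.15 in sh-CACUL1. Fdx1 was at 84.2 FPKM in FLAG against 18.4 to 32.3 in the other 3 samples. Isca1 and Isca2, which assemble clusters, were lower in FLAG-CACUL1 with -1.12 and -1.17, and Iscu, the scaffold, was higher with 1.07. For Isca1 and Iscu it was FLAG that stood apart from the other 3 samples. Isca1 was at 84.8 FPKM in FLAG against 38.4 to 41.1, and Iscu at 36.5 against 77.8 to 87.9. Against sh-Luc, FLAG-CACUL1 differed by -0.10 for Isca1, -0.17 for Iscu and -0.98 for Isca2. Glrx5, which passes clusters on, was higher in sh-CACUL1 with 1.12.

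In cytosolic iron-sulfur assembly, 1 of 8 genes was lower in FLAG-CACUL1 and 2 were lower in sh-CACUL1. Ciao2b was lower in both, with log2 differences of -1.36 and -1.50, and Nubp1 differed by 0.85 and -1.11. Of 6 chaperones and genes of regulatory protein turnover, Skp1a was higher in FLAG-CACUL1 with 1.14 and differed by -0.15 in sh-CACUL1. It encodes a subunit of the ubiquitin ligase that degrades iron regulatory protein 2. FLAG stood apart for Skp1a, at 36.1 FPKM against 81.0 to 90.9 in the other samples. Against sh-Luc, FLAG-CACUL1 differed by -0.17. Of 6 other mRNAs known to hold an IRE, Epas1, a hypoxia factor, was lower in FLAG-CACUL1 with -1.34, and with -0.60 against sh-Luc. None of the 6 passed 2-fold in sh-CACUL1.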

How the data were processed

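The authors deposited FPKM values for 13110 rows of RefSeq transcripts in each of 4 samples, 1 per group. Libraries were prepared and sequenced by a company. The submitters' processing notes list the build mm10, and the aligner, the program that computed FPKM and any scaling between samples are not given in the sources used here. No counts were in the files, so no count test was used, and with 1 sample per group no test was made and no p-value is given.

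Rows were named through GENCODE M21 (12919 rows) or RefSeq (144 rows). Another 47 rows had no symbol, 8 matched several symbols, and rows of a symbol were summed to 13085 genes. Differences are log2 ratios of FPKM with a pseudocount of 1, which understates the change of low genes. A gene was called at 2-fold or more, after the study's cut-off, with no filter on low values. Each CACUL1 line was compared with the control of its own vector. The files give no depth. It was estimated from the steps of low FPKM values multiplied by transcript length, in transcripts of at least 3000 bases, and intervals are exact Poisson intervals on the fragments so derived.

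The 8 genes and all lists were chosen with earlier results of these data known. From the wider list, the 20 genes at least 2-fold apart in either CACUL1 comparison with the largest difference, among those of at least 1 FPKM in all samples, were taken, and Hfe and Epas1 were named after their values were seen. A result that rule would name is not reported here. For Fth1, Ftl1 and Tfrc, the 3 genes of most similar pattern were named. There were 9 alternatives: 2 other pseudocounts, a filter at 1 FPKM, 2 scalings, the row of highest mean per symbol, the other control, and cut-offs of 3-fold and 1.5-fold. The fold and hairpin scripts were tested on simulated data. Computations used Python 3.11.15, numpy 2.4.6, pandas 2.3.3, scipy 1.17.1 and matplotlib 3.10.9.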

Additional observations from a re-analysis of the deposited data

How the results depend on the processing

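No paired analysis was possible because each group has 1 sample. Of 157 values of the 8 genes under the alternatives, 134 stayed on the same side of 2-fold with the same direction, 9 dropped below 2-fold, 7 passed it and 7 changed sign below 2-fold, as Ireb2 and Ncoa4 did. Some of the 134 could not have changed. These are 24 under the row of highest mean, since each of the 8 genes had 1 row. They also include 21 under the filter at 1 FPKM, which drops genes and leaves the other values as they were. With median-of-ratios scaling the log2 difference of Fth1 in sh-CACUL1 against sh-Luc was -0.58 and that of Tfrc 1.10, and Slc40a1 was at 0.88 in FLAG-CACUL1 against FLAG and at -0.79 in sh-CACUL1 against sh-Luc, each on the other side of 2-fold from the deposited scale. The cause of these moves was not tested.

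Counts over all genes moved with the pseudocount and with the fold required, by construction. Genes at least 2-fold apart in FLAG-CACUL1 against FLAG numbered 3161 with a pseudocount of 0.1 and 3775 with none. With none they numbered 4799 in sh-CACUL1 against sh-Luc and 4711 in FLAG against sh-Luc. At 3-fold the 3 comparisons gave 663, 936 and 994 of 13085 genes, with 0 of the 8 in each. At 1.5-fold they gave 4494, 5809 and 5629 of 13085, with 6 of the 8 in each CACUL1 comparison and 3 between the controls. At 2-fold between the controls, 0 of the 7 genes of at least 1 FPKM in all samples were called, where 2113 of all 9563 such genes were. Under either scaling 2 of the 8 were called. Of all 13085 genes, 2488 were called there under quantile normalization and 2502 under median-of-ratios scaling. With 1 sample a group, the variation between cultures is unknown.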
